A study of Mus musculus with 4 samples.

Results

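Netrins and Slits are secreted guidance cues, first studied in growing axons, and the genes described here are 10 members of these families and their receptors in the pubertal mouse mammary gland. The set was fixed by Ensembl gene ID: the cues Ntn1, Ntn4, Slit1, Slit2 and Slit3 and the receptors Neo1, Unc5b, Robo1, Robo2 and Robo4. All 10 IDs were found among the 28399 genes of the table. The symbols are those given with the list of IDs. No annotation used here pairs the IDs with symbols, so the names could not be checked.

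The study compared terminal end buds, the bulbous tips that lead a growing mammary duct at puberty, with the ducts behind them. Both came from the inguinal glands of C57/BL6 females, described in the labels as 5 to 6 weeks old in one field and 6 to 7 weeks old at killing in another. No genetic change or drug treatment is named for either structure. The structures were freed by collagenase and picked by microdissection, about 300 to 400 of them for a sample, and 2 arrays were made for each structure. The arrays are technical replicates of pooled material, so their spread says nothing about variation between mice. Each value is a log2 expression level, on which 1 unit is a 2-fold difference, and a level of one gene cannot be set against that of another.

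A netrin is a laminin-related protein that binds neogenin (the product of Neo1) and receptors of the Unc5 family. In the mammary gland, netrin-1 and neogenin are known for holding the outer cap cells of the end bud to the inner body cells. Slits are large secreted proteins that bind receptors of the Robo family. In the mammary gland, Slit2 with Robo1 is known for cell adhesion within the bilayer and for restraining side branches. Netrin-4 lies in basement membranes, and Robo4 is best known from endothelium.

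The 4 arrays resembled each other closely across all genes, with Pearson's r of 0.979 within terminal end buds, 0.968 within ducts and 0.948 to 0.961 across structures. Genes are not independent replicates, so these values are a description. The median gene measured 0.11 log2 units more in terminal end buds, so each difference was also read after centring every array on its median. Markers of epithelial, endothelial, stromal and immune cells, and the wider list of pathway genes, were not analysed here because they were listed by symbol. The labelled tissue was therefore not checked against its markers. In such bulk samples, fewer cells of a type and less RNA per cell cannot be told apart.

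Both netrin cues measured less in terminal end buds than in ducts on every array, while the receptors Neo1 and Robo1 measured more there. Robo4 stood with the netrins, above its end bud level on both duct arrays. The 3 Slit cues, Unc5b and Robo2 overlapped between the structures. Arrays without overlap were thus seen for 5 of the 10 genes, or 50%, close to the 53.4% of all genes. The directions of Ntn1, Ntn4, Neo1, Robo1 and Robo4 also held after quantile normalization and median centring. Of the 10 genes, 0 were called by limma (p adjusted over all genes by Benjamini-Hochberg to under 0.05, with a difference of 1.5-fold or more), against 0% of all genes, so none of these differences is a call. An unadjusted p under 0.05 from limma was reached by 3 of the 10, Ntn1, Robo4 and Robo1, against 19.7% of all genes.

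**Figure D1:**
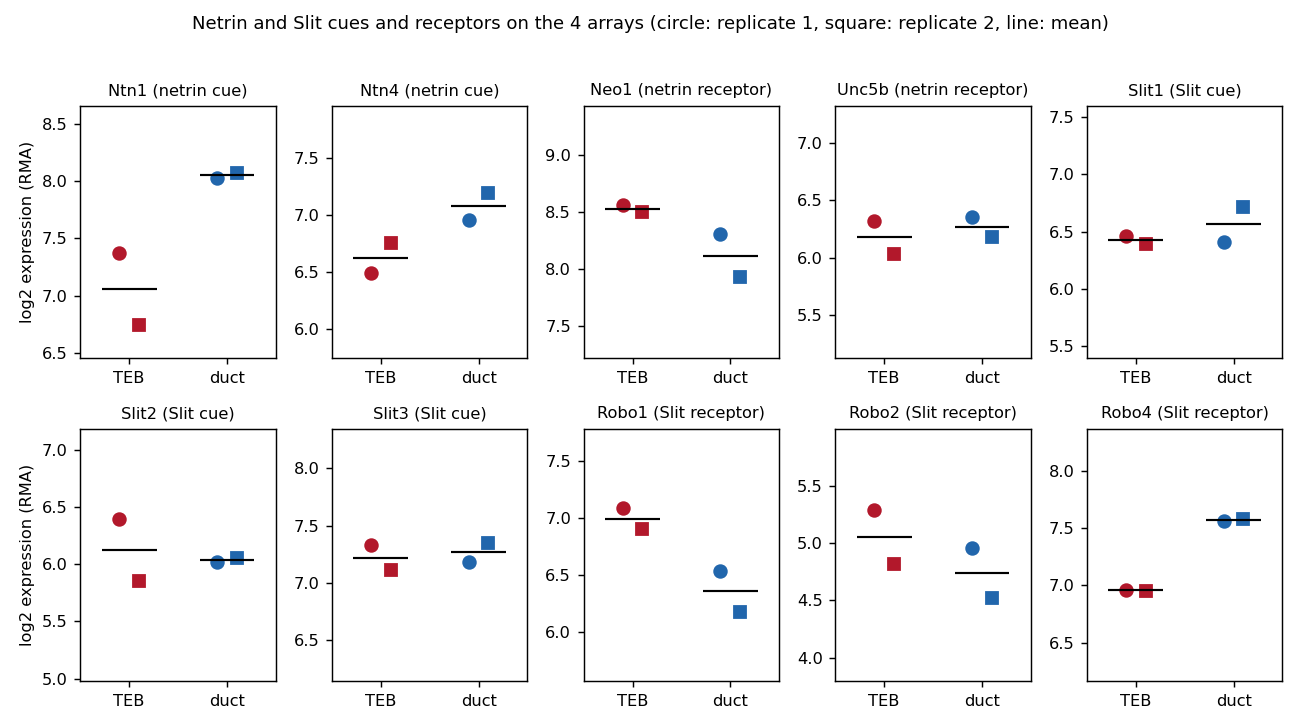
Log2 expression (RMA) of each gene on the 4 arrays, with terminal end buds (TEB) in red, ducts in blue, circles for replicate 1, squares for replicate 2 and a line at the mean of each structure. Every panel spans the same number of log2 units around its own centre. Ntn1, Ntn4, Neo1, Robo1 and Robo4 are separated between the structures, and the other 5 genes overlap. Of all genes, 53.4% are separated in this way.

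Of the cues, Ntn1, which encodes netrin-1, (ENSMUSG00000020902) measured 7.37 and 6.75 in terminal end buds and 8.03 and 8.07 in ducts. Both duct values were above both end bud values, and the end bud arrays lay 0.62 apart where the duct arrays lay 0.05 apart. The end bud mean was 7.06 ± 0.44 (SD, n = 2) and the duct mean 8.05 ± 0.03 (SD, n = 2). This is a log2 difference of -0.99, terminal end bud minus duct, with SE 0.27 and a 95% interval from -1.70 to -0.28, or 1.99-fold. By limma, Ntn1 had an unadjusted p of 0.016 and an adjusted p of 0.18. Its difference was -1.11 after median centring. Its size moved with the end bud arrays: it was -1.30 when replicate 1 of the end buds was left out and -0.68 when replicate 2 was. Of all genes, 2.87% had a lower (more negative) difference.

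Ntn4 (ENSMUSG00000020019), which encodes the basement membrane cue netrin-4, measured 6.49 and 6.75 in terminal end buds and 6.95 and 7.19 in ducts. The structures did not overlap, but the gap of 0.20 between them was smaller than the distance of 0.26 between the end bud arrays. The log2 difference was -0.45 with SE 0.20 and a 95% interval from -0.99 to 0.09, and limma's adjusted p was 0.31. After median centring it was -0.56, and without single arrays it ran from -0.58 to -0.32.

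Of the netrin receptors, Neo1 (ENSMUSG00000032340), which encodes neogenin, measured 8.56 and 8.50 in terminal end buds and 8.30 and 7.93 in ducts. Both end bud values were above both duct values, and here the duct arrays were the more spread, 0.37 apart. The gap of 0.19 between the structures was smaller than that distance. The log2 difference was 0.41 with SE 0.21 and a 95% interval from -0.14 to 0.96, with an adjusted p of 0.35 from limma. It was smaller once the arrays were rescaled, at 0.30 after median centring and 0.21 after quantile normalization. Leaving out a duct array also moved it, to 0.22 without replicate 2 and 0.60 without replicate 1.

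Unc5b (ENSMUSG00000020099), a receptor through which netrins repel, measured 6.32 and 6.04 in terminal end buds and 6.36 and 6.18 in ducts. The values of the structures interleaved, with a log2 difference of -0.09 and a 95% interval from -0.62 to 0.44. After quantile normalization both duct values lay above both end bud values, at 6.34 and 6.30 against 6.24 and 6.01. The same held after median centring, where the log2 difference of Unc5b was -0.20.

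On the deposited values the structures overlapped for each of the 3 Slit cues. Slit1 (ENSMUSG00000025020) measured 6.46 and 6.39 in terminal end buds and 6.41 and 6.72 in ducts, a log2 difference of -0.14 with a 95% interval from -0.66 to 0.38. After median centring Slit1 stood at -0.25 and after quantile normalization at -0.26, and on both scales its duct values lay above its end bud values. Slit2 (ENSMUSG00000031558), the partner of Robo1 in mammary ducts, measured 6.40 and 5.86 in terminal end buds and 6.02 and 6.05 in ducts. Its end bud arrays lay on either side of both duct arrays, and the log2 difference of 0.09 had a 95% interval from -0.56 to 0.74. Its sign turned to -0.023 after median centring. Slit3 (ENSMUSG00000056427) measured 7.33 and 7.11 in terminal end buds and 7.18 and 7.35 in ducts, a log2 difference of -0.05 with a 95% interval from -0.55 to 0.46. After median centring Slit3 stood at -0.16, with the structures still overlapping. From limma, Slit1 had an adjusted p of 0.72, Slit2 of 0.86 and Slit3 of 0.91. These intervals leave room for differences of up to 1.5-fold or more in at least one direction for Slit1 and Slit2, and nearly as much for Slit3, so equal levels are not shown.

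Of the Slit receptors, Robo1 (ENSMUSG00000022883) measured 7.09 and 6.90 in terminal end buds and 6.54 and 6.18 in ducts. Both end bud values were above both duct values, by at least 0.36, a gap about equal to the distance between the duct arrays. The end bud mean was 6.99 ± 0.13 (SD, n = 2) and the duct mean 6.36 ± 0.26 (SD, n = 2). The log2 difference was 0.64 with SE 0.21 and a 95% interval from 0.06 to 1.21, or 1.55-fold, with an unadjusted p of 0.036 and an adjusted p of 0.23 from limma. After median centring it was 0.52, and without single arrays it ran from 0.45 to 0.82.

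Robo4 (ENSMUSG00000032125), an endothelial Robo with a shortened outer part, went the other way. It measured 6.96 and 6.95 in terminal end buds and 7.57 and 7.58 in ducts. On the deposited scale the arrays of a structure lay within 0.02 log2 units of each other, and the structures 0.60 apart. That closeness did not outlast rescaling: the duct arrays lay 0.16 apart after median centring and 0.18 after quantile normalization, and the end bud arrays 0.05 and 0.06. The log2 difference was -0.62 with SE 0.17 and a 95% interval from -1.06 to -0.18, or 1.54-fold, with an unadjusted p of 0.017 and an adjusted p of 0.18 from limma. The difference was -0.73 after median centring and -0.77 after quantile normalization. Before any rescaling its own residual SD was 0.011 against a median of 0.22 over all genes. The SE comes mostly from limma's prior, which draws each gene's variance towards that of all genes. Without single arrays the difference of Robo4 stayed between -0.63 and -0.61 on the deposited scale, which restates how close its arrays lay there. Single arrays were not left out of the rescaled values.

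Robo2 (ENSMUSG00000052516), the remaining Robo, measured 5.29 and 4.82 in terminal end buds and 4.96 and 4.52 in ducts. The structures overlapped, with a log2 difference of 0.31, a 95% interval from -0.41 to 1.04 and an adjusted p of 0.56 from limma. After median centring the difference was 0.20, with the structures still overlapping. Without end bud replicate 1 the difference was 0.075 and without replicate 2 it was 0.55. Without duct replicate 2 it was 0.094 and without replicate 1 it was 0.53. Its values were dim, at the 25th to 34th percentile of their arrays, where signal may not stand clear of background. The values of Neo1 lay at the 80th to 84th percentile.

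With 2 arrays against 2, an exact permutation test (two-sided) of any one of these genes cannot go below p = 0.33.

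**Figure D2:**
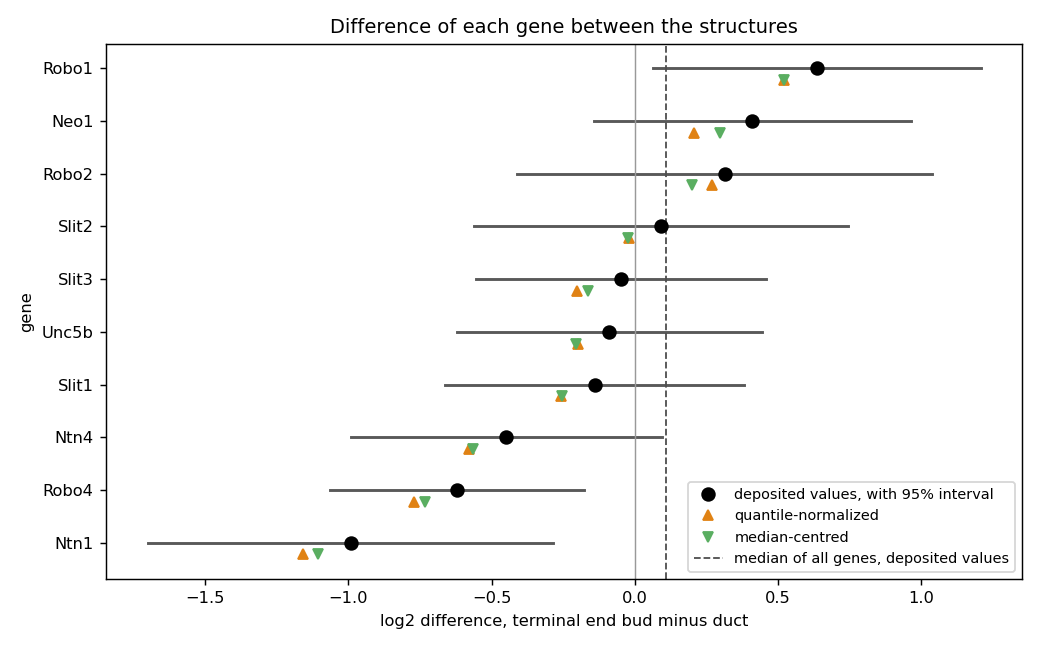
Log2 difference between the structures (terminal end bud minus duct) for each gene, ordered by size. Black points with lines are the deposited values with 95% intervals from limma, triangles are the same differences after quantile normalization or median centring, and the dashed line is the median of all genes, 0.11. The intervals of Robo1, Robo4 and Ntn1 do not reach 0.

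The promoters of these receptors and of the separated netrin genes with an entry are shown, since the genes measured higher in different structures. The sequences are RefSeq's, in build GRCm38.p6, whereas the submitters' processing notes name mm9 for the arrays. Of the 10 genes, 8 had an entry, and Ntn1 and Slit1 did not. Each line is the 250 bases before the listed start, on the gene's strand, 5′ to 3′. Capitals mark GGGCGG (the GC box) and CAGGTG (an E-box), or their reverse complements. The windows are chr16:72662899-72663148 (plus strand) for Robo1, chr9:37401722-37401971 (plus strand) for Robo4, chr9:59036442-59036691 (minus strand) for Neo1 and chr10:93640799-93641048 (plus strand) for Ntn4.
Robo1: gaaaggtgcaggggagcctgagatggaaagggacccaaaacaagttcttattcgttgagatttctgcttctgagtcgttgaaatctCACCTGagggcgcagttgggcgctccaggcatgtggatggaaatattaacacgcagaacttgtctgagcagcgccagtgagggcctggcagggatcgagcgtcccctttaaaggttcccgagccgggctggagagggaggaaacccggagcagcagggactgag
Robo4: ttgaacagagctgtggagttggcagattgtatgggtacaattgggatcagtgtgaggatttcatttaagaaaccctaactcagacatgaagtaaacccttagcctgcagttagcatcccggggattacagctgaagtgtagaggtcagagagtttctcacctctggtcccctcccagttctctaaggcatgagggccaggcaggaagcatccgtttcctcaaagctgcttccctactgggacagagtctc
Neo1: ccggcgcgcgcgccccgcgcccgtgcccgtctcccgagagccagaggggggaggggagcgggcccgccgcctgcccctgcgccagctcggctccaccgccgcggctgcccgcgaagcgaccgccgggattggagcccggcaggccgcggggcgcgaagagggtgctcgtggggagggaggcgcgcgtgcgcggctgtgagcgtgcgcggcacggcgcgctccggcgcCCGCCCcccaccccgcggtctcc
Ntn4: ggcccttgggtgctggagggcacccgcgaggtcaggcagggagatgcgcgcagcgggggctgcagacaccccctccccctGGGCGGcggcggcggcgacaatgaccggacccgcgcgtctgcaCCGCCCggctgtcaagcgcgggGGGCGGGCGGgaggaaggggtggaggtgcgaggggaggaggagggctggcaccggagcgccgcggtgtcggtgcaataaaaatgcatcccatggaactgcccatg

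The windows differed in base composition. Robo4 held 2 CpG dinucleotides, an observed over expected ratio of 0.131, and 19.4% of all windows had a lower ratio. Neo1 held 45, with a ratio of 1.04 and 83.2% G and C. Robo1 held 11 (ratio 0.592) and Ntn4 held 26 (ratio 0.809), where the median ratio of all 32841 windows of this length was 0.374. The Ntn4 window held 4 GC boxes, of which 2 overlap, and the Neo1 window held 1. The GC box occurs on either strand in 32.7% of all windows. The Robo1 window held 1 E-box of these letters, 164 to 159 bases before the start, which 17.2% of windows hold. Of the other genes, Slit3 held 6 GC boxes, Slit2 held 3 and Unc5b held 2. Among these 8 genes, only Slit2 held TATAAA, 28 to 23 bases before its start, as do 12.4% of windows. The letters CCGGAAG, bound by ETS factors, were in none of the 10 windows of the 8 genes and in 6.91% of all windows. These matches describe letters only, and 10 windows cannot relate them to the differences.

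The set was read against the whole array by counts and medians only, and no set test was run. The structures did not overlap for 5 of the 10 genes, or 50%, against 53.4% of all genes. Of these, 2 measured more in terminal end buds (33.8% of all genes) and 3 more in ducts (19.6% of all genes). At least a 1.5-fold difference was seen for 3 of the 10 genes, against 24.1% of all genes. None of the 10 was separated by at least 2-fold, as 7.06% of all genes were, although Ntn1 lay just under that limit. The median difference was -0.07 for the 10 genes and 0.11 for all genes, and -0.18 and -0.01 after median centring. The median size of the difference, whatever its sign, was 0.36 for the set and 0.32 for all genes. After quantile normalization 7 of the 10 did not overlap, against 51.4% of all genes. Unc5b and Slit1 were added, both with higher values in ducts. The median difference was then -0.20 for the 10 genes and 0.004 for all genes.

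Whether any of the 10 genes was called depended on how variance, array scale and dim genes were handled. With a limma prior that follows brightness, 0 of the 10 were called, against 5.23% of all genes, and Ntn1 came nearest with an adjusted p of 0.068. With the same prior on quantile-normalized values Ntn1 was called, with an adjusted p of 0.043, as were 5.16% of all genes. It was also called on median-centred values, with an adjusted p of 0.044, as were 5.58% of all genes, in a fit chosen after the data were seen. With only the brighter part of all genes in the fit, those above the median, Robo4 was called with an adjusted p of 0.049, as were 10% of the genes kept, of which 7 are in the set. No fit run here called more than 1 of the 10.

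**Figure D3:**
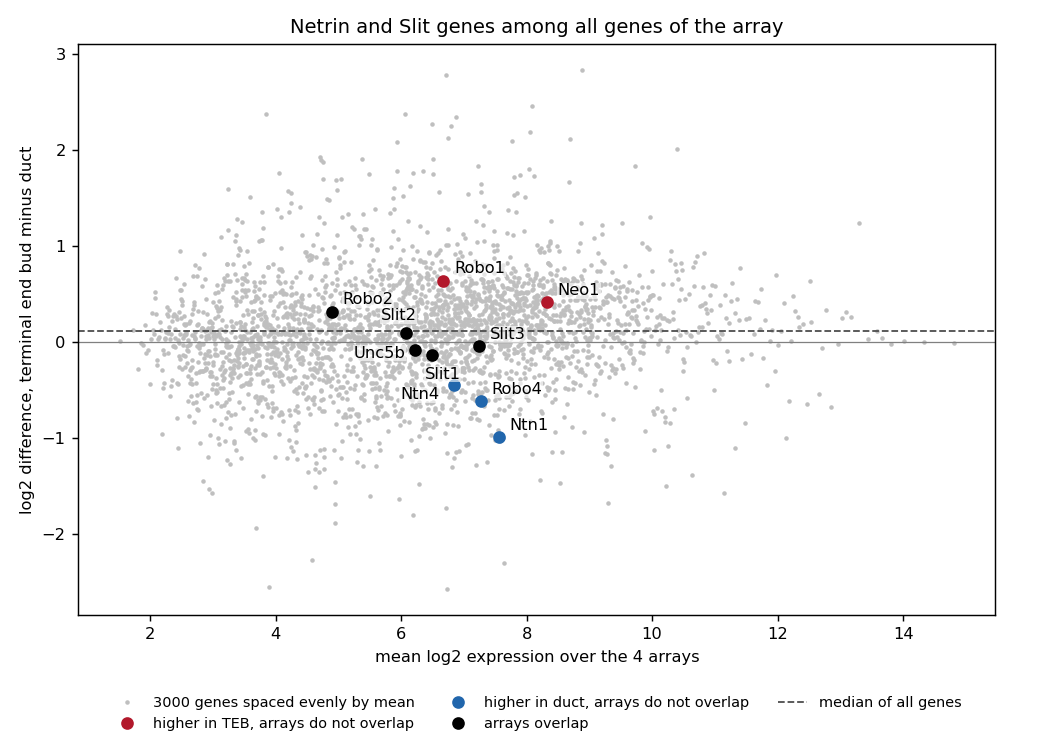
Log2 difference (terminal end bud minus duct) against mean log2 expression over the 4 arrays, for the 10 genes and for 3000 genes spaced evenly by mean (grey). Red and blue points are genes whose arrays do not overlap, black points overlap, and the dashed line is the median of all genes, 0.11. Ntn1, the lowest of the 10 genes, lies low in the cloud, with 2.87% of all genes below it.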

How the data were processed

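Biotin-labelled cRNA from 1.5 microg of total RNA was hybridised to 4 single-colour Affymetrix arrays, per the labels' protocols. The deposited log2 values, one per Ensembl gene ID, were made by the authors with RMA (background correction, normalization and summary of probes), and mm9 is the genome build, both per the submitters' processing notes. The sources used here give no version, no filter and no step from probes to genes. Array data have no read depth, and the number of arrays limits the precision.

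Groups came from the titles. All 28399 genes were fitted with limma 3.58.1 in R 4.3.3 (lmFit, eBayes) without filter or block, leaving 2 residual and 2.51 prior degrees of freedom. P-values were adjusted by Benjamini-Hochberg over all genes. They set each difference against the spread between technical replicates, drawn by limma's prior towards that of all genes. Alternatives were quantile normalization, median centring, a brightness filter, a variance prior following brightness, robust moderation, other thresholds, a replicate block and leaving out each array. The scripts were tested on simulated data. The 10 genes, the lists and the tests were chosen with earlier results of these data known. The rule named all 10 genes. The wider pathway list and the cell type markers were not run, since 0 of the IDs are paired with a symbol in the reference table. Same-numbered arrays deviated together with r = 0.086 across genes and were not treated as pairs.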

Additional observations from a re-analysis of the deposited data

How the results depend on the processing

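Over 12 alternatives, 6 of the 10 genes kept their direction: Ntn1, Ntn4, Neo1, Robo1, Robo4 and, where entered, Robo2. Only rescaling tested the first 5, since other fits keep the difference or the structures' order. The count of 0 called genes became 1 among genes above the median brightness (Robo4, adjusted p = 0.049 from limma, against 10% of all genes called there, with 7 of the 10 genes entering). It also became 1 (Ntn1) with a variance prior following brightness on quantile-normalized values (adjusted p = 0.043, 5.16% of all genes called). On median-centred values it did too (adjusted p = 0.044, 5.58% called). The last was chosen after seeing the data. Without rescaling that prior called 0 of the 10 (5.23% of all genes), with adjusted p = 0.068 for Ntn1 and 0.090 for Robo4. Fits without an array assume the lone array varies like the other structure's, so no calls are counted from them. In fits that kept all 4 arrays, limma's adjusted p ran from 0.043 to 0.21 for Ntn1 and from 0.049 to 0.22 for Robo4. For Robo1 it ran from 0.083 to 0.24. With a replicate block, limma's adjusted p was 0.21 for Ntn1, 0.22 for Robo4 and 0.22 for Robo1, the lowest of the 10 genes. The count at least 2-fold apart without overlap was 0 of 10 (7.06% of all genes). It became 1 (Ntn1) after quantile normalization (-1.16) and median centring (-1.11). No share of all genes was counted there, or for directions, so this is not weighed. Without single arrays Ntn1 ran from -1.30 to -0.68.

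Without single arrays Robo2, at 0.31 with all 4, ran from 0.075 to 0.55, and Neo1, at 0.41, from 0.22 to 0.60. The direction turned for 4 genes, none of them called. Slit2 went from 0.09 to -0.021 after quantile normalization and -0.023 after median centring, with either prior. Without single arrays, Slit2 ran from -0.18 to 0.36, Unc5b from -0.23 to 0.052, Slit1 from -0.29 to 0.012 and Slit3 from -0.16 to 0.061. Slit2 turned without end bud replicate 1, Unc5b without end bud replicate 2, Slit1 without duct replicate 2, and Slit3 without either of the last pair. The cause was not tested. No detection calls were used, so how far dim genes such as Robo2 stand above background is unknown. The wider pathway list had no alternatives run.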
